A study of Homo sapiens with 4 samples.

Results

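The EGFR family was followed in UMSCC74B cells, a line from a squamous cell carcinoma of the head and neck, through 10 genes chosen by name: the receptors EGFR, ERBB2 and ERBB3 and the ligands AREG, EREG, HBEGF, TGFA, EPGN, NRG1 and BTC. These are 10 of the 29655 distinct gene names in the count tables, and each name had 1 row in every table. The comparison holds 2 libraries from cells given a control shRNA (genotype WT) and 2 from cells given an shRNA against PRMT5 (genotype PRMT5 KD), all collected 72 h later. The sample labels speak of plasmid transfection and the methods of the study of lentiviral particles, and PRMT5 was targeted with a single shRNA product. Nothing in the labels says that libraries of a group came from separate cultures, so the p-values measure only the spread between these libraries, which may be technical.

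EGFR, ERBB2 and ERBB3 are receptor tyrosine kinases that pair at the cell surface when a ligand binds and then signal through RAS and ERK and through PI3K. ERBB2 has no known ligand of its own and ERBB3 has a weak kinase, so both act mainly as partners. EGFR binds amphiregulin (AREG), transforming growth factor alpha (TGFA) and epigen (EPGN), while heparin-binding EGF (HBEGF), betacellulin (BTC) and epiregulin (EREG) also bind ERBB4, and neuregulin 1 (NRG1) binds ERBB3 and ERBB4. The ligands are made as membrane proteins and are released by proteases such as ADAM17. EGFR is often abundant in head and neck squamous tumours and is a drug target there.

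The libraries held 52185289 to 65964558 counts on gene names, with ribosomal RNA at 15.3% and 14.2% in control and 26.2% and 18.0% in the PRMT5 KD libraries. The targeted transcript, PRMT5, had 94.3 and 84.3 CPM (counts scaled to library size with TMM factors) in control against 132 and 150 CPM in PRMT5 KD, which gave 0.66 on the log2 scale (FDR = 0.00545, and 0.0675 without control replicate 2). It was higher and not lower, so every direction below is by the label, and PRMT5 KD stands for the libraries so labelled. The study reports that an immunoblot bore out the silencing by the PRMT5 shRNA, and protein is not measured by these counts. Of 10 squamous epithelial markers, 3 passed the expression filter, and KRT5, KRT14 and KRT6A, the defining keratins, had at most 22 counts in any library. Of the 3 tested, DSG3 (-0.85 on the log2 scale) and TP63 (-1.35) were called lower and PKP1 (0.79) higher. TP63 passed the filter through the control group only. KRT14 had 0 and 0 counts in control against 11 and 22 in PRMT5 KD. KRT17, below the filter, had 5 and 6 counts in control against 53 and 71 in PRMT5 KD. SFN, also below it, had 3 and 5 against 28 and 86, while DSC3 had 70 and 98 against 63 and 59. Summed over the 10 markers the level ran from 54.4 to 59.8 CPM in control and from 38.3 to 49.9 CPM in PRMT5 KD. By contrast all 6 fibroblast markers were expressed and all 6 were called lower, with a summed level of 696 and 789 CPM in control and 126 and 147 CPM in PRMT5 KD. None of the fibroblast markers was at 0 in any library. The 5 endothelial markers summed to between 11.1 and 14.9 CPM in control and between 1.32 and 2.17 CPM in PRMT5 KD. The 6 leukocyte markers summed to 129 and 153 CPM in control and 154 and 172 CPM in PRMT5 KD. Nearly all of that was CD14, called lower at 34.6 and 40.0 against 1.07 and 1.86 CPM (-4.67 on the log2 scale), and CD68, called higher at 94.7 and 113 against 153 and 170 CPM (0.63), while PTPRC had at most 5 counts and CD3E none. The line named by the labels is squamous, while these keratins were near absent and the fibroblast markers were expressed. The identity of the cells was not tested. In bulk RNA, fewer cells of a type and less RNA per cell cannot be told apart, and the part of these markers in the results below was not tested.

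The levels of the family were first set side by side within the control cells, as RPKM (counts scaled to exon length and library size), since only a level per length can be compared between genes. EREG was by far the most abundant member, at 270 and 255 RPKM. EGFR followed at 23.5 and 21.3 RPKM, above HBEGF at 19.2 and 12.8 and ERBB2 at 11.4 and 13.4, which overlapped each other. NRG1 had 3.88 and 2.41 RPKM, TGFA 2.27 and 2.73, and AREG 2.74 and 2.0, and neighbours in that order overlapped. BTC, at 1.76 and 1.46 RPKM, lay above ERBB3, at 0.975 and 1.30. EPGN was lowest, at 0.0919 and 0.121 RPKM. Among the 7 ligands EREG made up 90.0% and 92.2% of the summed RPKM in control, and 84.4% and 89.4% in PRMT5 KD. NRG1 has many transcript forms and an exon union of 21372 bases, which lowers its RPKM relative to the short ligand genes. The same holds for the receptors, with exon unions of 15941 (EGFR), 10321 (ERBB2) and 11711 bases (ERBB3). Those of AREG, BTC and HBEGF are 1642, 2653 and 2990 bases. In CPM, ERBB3 (11.4 and 15.2) lay above BTC (4.68 and 3.86) in control. The order of genes in RPKM and the size of RPKM ratios between genes thus depend on the exon length used.

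**Figure D1:**
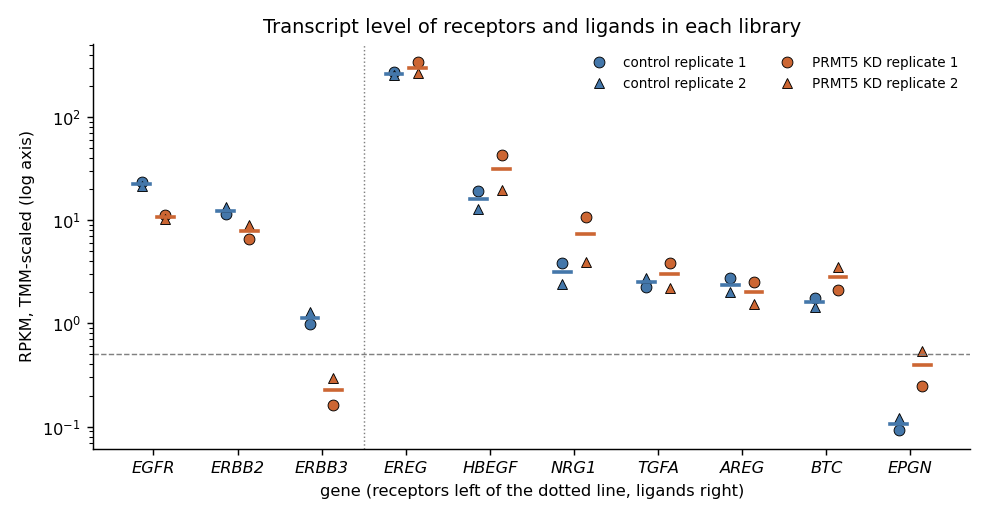
Each point is 1 library, with the TMM-scaled RPKM on a log axis for the 10 genes, horizontal bars at the group means and a dashed line at 0.5 RPKM. EREG stays above 250 RPKM in all 4 libraries, the receptor points separate by group, and EPGN and ERBB3 hold the lowest values.

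All 3 receptor transcripts were called lower in PRMT5 KD, and none of the ligands tested was called in either direction. A call required a log2 fold change of at least 0.5 in either direction and an FDR (adjusted p) under 0.05 in the quasi-likelihood test of edgeR over 11896 protein-coding genes. Of these, 45.5% were called, with 24.3% of the genes tested called lower and 21.2% called higher. Of the 10 members 9 were tested, with EPGN below the filter, and 3 were called lower, 0 higher and 6 not at all. At an unadjusted p under 0.05 in the edgeR test, 1 ligand was higher (BTC), and the share of all genes at that p was not counted. DESeq2 called 2 ligands higher (HBEGF and BTC), beside 2612 of all 11896 genes tested. The 6 ligands tested had a median of 0.54 on the log2 scale and the 3 receptors -1.06, against -0.0077 over all genes tested. Of the 6 ligands 5 lay above 0, as did 5882 of all 11896 genes tested. Without PRMT5 KD replicate 1 the values were -0.15 for TGFA, 0.05 for EREG, 0.34 for HBEGF and 0.37 for NRG1. In that fit AREG was at -0.58 and BTC at 1.17. The CPM of the groups did not overlap for 6 of the 9 members tested, against 80.5% of all genes tested. With total counts in place of TMM, the median over all genes tested moved to 0.17 and 61.5% of all calls were higher, against 46.5%.

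EGFR, which lies on the plus strand of chromosome 7 of GRCh38 from 55019017 to 55211628, had 14854 and 16994 counts in the control libraries against 8587 and 7731 in PRMT5 KD. Both PRMT5 KD libraries lay below both control libraries. The mean was 358 ± 25.2 CPM in control and 171 ± 13.3 CPM in PRMT5 KD (SD, n = 2), which on the log2 scale is -1.06 (SE, the standard error, 0.13, 95% interval from -1.37 to -0.75, FDR = 0.00111), or 2.09-fold lower. Corrected for the length and GC content of exons the value was -0.65, still called. EGFR-AS1, an antisense transcript inside the gene, had 1 count in 1 library and none in the other 3.

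The bases just before the RefSeq start of EGFR are shown because EGFR carried the most counts of the receptors called lower. They are the 150 bases at chr7:55018867-55019016 (GRCh38.p14, plus strand), with matches to a GC box (GGGCGG, either strand) in capitals.
EGFR: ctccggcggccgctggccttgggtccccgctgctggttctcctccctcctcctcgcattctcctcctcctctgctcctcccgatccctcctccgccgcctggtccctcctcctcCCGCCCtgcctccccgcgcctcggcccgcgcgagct
Over the 250 bases before the start, EGFR had 73.6% G and C, against a median of 58.0% over 35116 RefSeq promoter windows, and it held 2 GC boxes, where 42.6% of the windows hold at least 1. It held no TATA box (TATAAA). The window of ERBB2 had 65.6% G and C and neither a GC box nor a TATA box. A match is a string of letters and not a measured binding site.

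ERBB2, the preferred partner of the other receptors, lies on the plus strand of chromosome 17 from 39687914 to 39730426. It had 4637 and 6941 counts in the control libraries against 3239 and 4432 in PRMT5 KD, or 117 and 139 CPM against 68.1 and 92.7 CPM. The groups did not overlap, but each spread was wide, at 128 ± 15.3 CPM and 80.4 ± 17.4 CPM (SD, n = 2). The log2 fold change was -0.67 (SE 0.18, 95% interval from -1.10 to -0.24, FDR = 0.0200). That call was lost once fold changes were corrected for the length and GC content of exons (-0.28, FDR = 0.220), with total counts alone (-0.49, FDR = 0.0677), and without control replicate 1 (-0.79, FDR = 0.0558), control replicate 2 (-0.54, FDR = 0.137) or PRMT5 KD replicate 1 (-0.43, below the fold change threshold). PGAP3 and MIEN1, expressed genes on the opposite strand, overlap the ends of ERBB2, and whether the counting used strand is not stated. PGAP3 had 1682 and 2520 counts in control against 742 and 898 in PRMT5 KD, and MIEN1 794 and 966 against 1158 and 970. Their part in the ERBB2 counts was not tested.

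ERBB3, the main receptor for neuregulins in epithelial cells, lies on the plus strand of chromosome 12 from 56076799 to 56103505. It had 452 and 759 counts in the control libraries against 90 and 164 in PRMT5 KD. Its level was 11.4 and 15.2 CPM in control and 1.89 and 3.43 CPM in PRMT5 KD, so the highest PRMT5 KD value was well under the lowest control value. The log2 fold change was -2.32 (SE 0.32, 95% interval from -3.10 to -1.54, FDR = 0.00208), or 5.0-fold lower. ERBB3 passed the filter through the control group only, and it was also called lower with no filter on low counts (-2.27). Leaving out PRMT5 KD replicate 1 gave -1.92, leaving out PRMT5 KD replicate 2 gave -2.81, and both were called.

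Summed over the 3 receptors the level was 35.9 and 36.1 RPKM in control and 18.1 and 19.4 RPKM in PRMT5 KD. EGFR made up 65.6% and 59.1% of the receptor sum in control and 62.6% and 52.2% in PRMT5 KD, ranges that overlapped. ERBB3 made up 2.72% and 3.59% in control and 0.893% and 1.51% in PRMT5 KD, which did not overlap. The ratio of EGFR to ERBB3 in RPKM was 24.1 and 16.4 in control and 70.1 and 34.6 in PRMT5 KD. ERBB4, the remaining receptor of the family, was close to absent in all libraries, with 10 and 18 counts in the control libraries against 16 and 9 in PRMT5 KD.

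**Figure D2:**
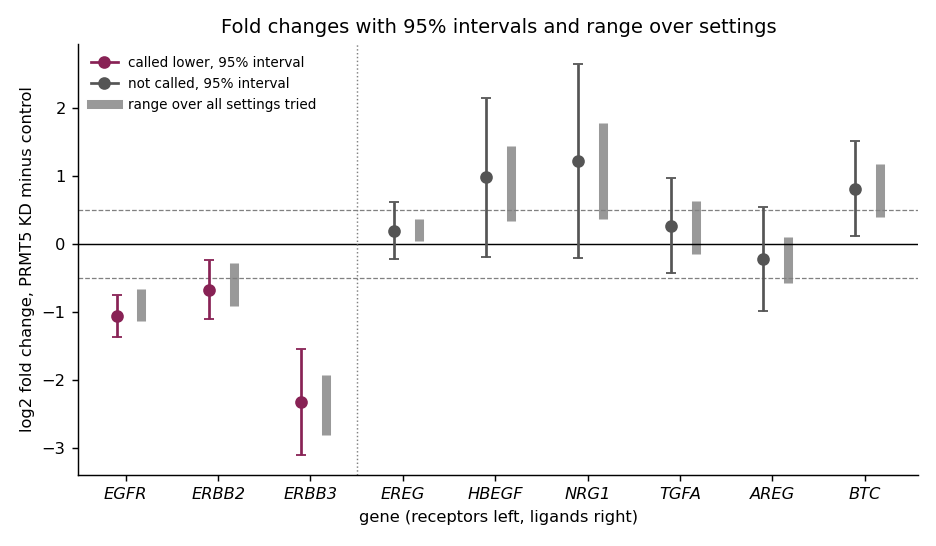
Points are log2 fold changes of PRMT5 KD minus control for the 9 genes tested, with 95% intervals, and grey bars span every setting tried, left-out libraries included. The intervals of the 3 receptors lie below 0, those of 5 ligands cross 0, and the interval of BTC lies above 0 without a call. Dashed lines mark the fold change threshold of 0.5 in either direction.

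EREG, the ligand with by far the highest level, is on the plus strand of chromosome 4 from 74365145 to 74388749. It had 60945 and 72735 counts in the control libraries against 91731 and 72003 in PRMT5 KD, which is 1540 and 1454 CPM against 1928 and 1506 CPM. PRMT5 KD replicate 1 was the highest library and PRMT5 KD replicate 2 lay between the control libraries. The log2 fold change was 0.20 (SE 0.17, 95% interval from -0.21 to 0.61, FDR = 0.359), and it was 0.05 without PRMT5 KD replicate 1 and 0.37 without PRMT5 KD replicate 2. AREG, its neighbour, had 178 and 164 counts against 196 and 121, a log2 fold change of -0.22 (95% interval from -0.98 to 0.54, FDR = 0.577). The sign of AREG turned to 0.02 without control replicate 1 and to 0.10 without PRMT5 KD replicate 2, neither with a call. TGFA (minus strand of chromosome 2, 70447284 to 70554193) had 442 and 670 counts against 897 and 516, or 11.2 and 13.4 CPM against 18.9 and 10.8 CPM. The TGFA groups overlapped (log2 fold change 0.27, 95% interval from -0.43 to 0.97, FDR = 0.451), and without PRMT5 KD replicate 1 the value was -0.15, while without PRMT5 KD replicate 2 it was 0.62 and called.

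HBEGF and NRG1 spread widely between the PRMT5 KD libraries relative to their means. HBEGF, on the minus strand of chromosome 5 from 140332843 to 140346603, had 57.3 and 38.2 CPM in control and 129 and 58.6 CPM in PRMT5 KD. The groups did not overlap, but the lower PRMT5 KD library lay just above the higher control library. Its log2 fold change was 0.98 (SE 0.44, 95% interval from -0.19 to 2.15, FDR = 0.125). NRG1 (plus strand of chromosome 8, 31639222 to 32855666) had 3281 and 2575 counts in the control libraries against 10852 and 4056 in PRMT5 KD. In CPM it went from 82.9 and 51.5 to 228 and 84.9, a log2 fold change of 1.22 (SE 0.54, 95% interval from -0.21 to 2.65, FDR = 0.120). Replicate 1 was the higher library of its group for both genes in both groups. PRMT5 KD replicate 1 carried most of both differences, since without it the log2 fold changes were 0.34 for HBEGF and 0.37 for NRG1, and without PRMT5 KD replicate 2 they were 1.44 and 1.77, both called. DESeq2 called HBEGF higher (0.98, FDR = 0.0108) and did not call NRG1. PRMT5 KD replicate 1 was also the library with 26.2% ribosomal RNA, and the part of that in these values was not tested.

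BTC and EPGN were the low ligands that stood higher in PRMT5 KD in both libraries. BTC, on the minus strand of chromosome 4 from 74744759 to 74794523, had 185 and 193 counts in the control libraries against 266 and 447 in PRMT5 KD. Its log2 fold change of 0.81 (SE 0.29, 95% interval from 0.11 to 1.51) just missed the threshold (FDR = 0.0524), and it was called by DESeq2 (0.82, FDR = 0.0292) and without PRMT5 KD replicate 1 (1.17), but not without PRMT5 KD replicate 2 (0.40). EPGN, on the plus strand from 74308470 to 74316789, had 12 and 20 counts in the control libraries against 39 and 85 in PRMT5 KD. At 0.303 and 0.400 CPM against 0.820 and 1.78 CPM it did not reach the expression filter (0.5 RPKM in both libraries of a group) in either group. With no filter on low counts its log2 fold change was 1.92 (SE 0.49, FDR = 0.0117 from edgeR).

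EREG, AREG, EPGN and BTC lie together on chromosome 4, in 486.1 kb from 74308470 to 74794523, with MTHFD2L, a mitochondrial folate enzyme, on one side and PARM1 on the other. Neighbours there differed in level by orders of magnitude. EREG starts 80.0 kb before AREG on the same strand and exceeded it 98.4-fold and 127-fold in RPKM in the control libraries and 135-fold and 171-fold in the PRMT5 KD libraries. MTHFD2L, which ends 5.37 kb before EPGN, rose from 138 and 225 counts to 768 and 676, a log2 fold change of 1.92 (SE 0.19, FDR = 0.000638), having passed the filter through the PRMT5 KD group only. PARM1 had 125 and 197 counts against 115 and 77 (-0.82, FDR = 0.0535). Of the 5 genes of this stretch that were tested, 1 was called, against 45.5% of all genes tested.

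**Figure D3:**
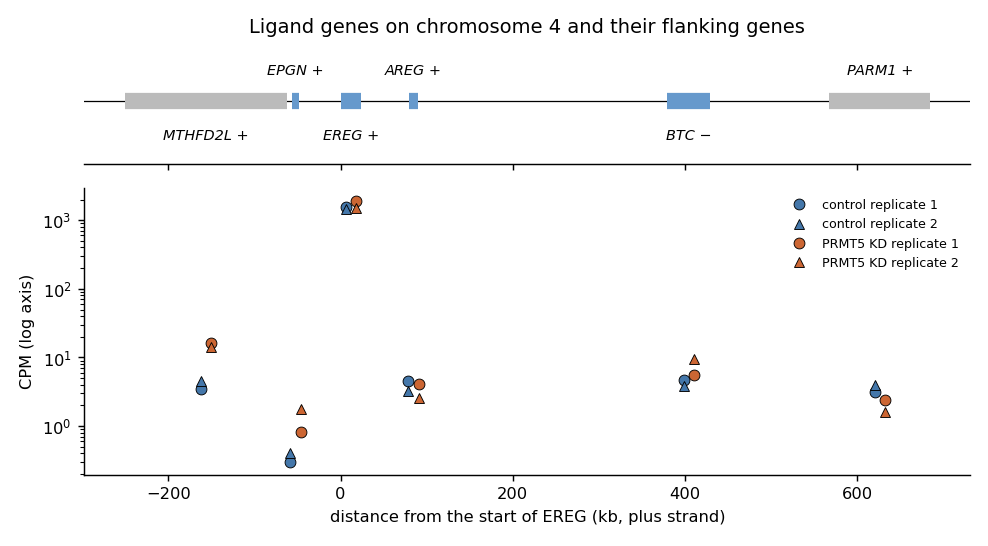
The upper panel draws the 6 genes to scale by distance in kb from the start of EREG, ligands in blue and flanking genes in grey, with the strand after each name, and the lower panel gives their CPM per library on a log axis. EREG lies between 1454 and 1928 CPM while the 5 genes around it stay under 20 CPM.

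The sequences before the starts of these 4 ligand genes are printed because the genes are neighbours of one family with very unlike levels. Each line holds the 150 bases before the RefSeq start (GRCh38.p14, read 5′ to 3′ on the strand of the gene), with capitals for matches to 4 motifs on either strand, none of which overlap here. The motifs are the TATA box and the GC box as spelled above, the string CCAAT, which is found in many promoters, and the cyclic AMP response element or CRE, spelled TGACGTCA. The windows are chr4:74308320-74308469, chr4:74364995-74365144 and chr4:74444986-74445135 on the plus strand and chr4:74794524-74794673 on the minus strand.
EPGN: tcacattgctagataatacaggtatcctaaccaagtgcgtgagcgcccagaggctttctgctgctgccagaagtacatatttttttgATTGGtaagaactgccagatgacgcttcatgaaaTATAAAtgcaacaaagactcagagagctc
EREG: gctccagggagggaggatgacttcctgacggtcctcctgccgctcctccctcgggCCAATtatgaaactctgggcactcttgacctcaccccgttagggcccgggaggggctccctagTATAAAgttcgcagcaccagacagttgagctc
AREG: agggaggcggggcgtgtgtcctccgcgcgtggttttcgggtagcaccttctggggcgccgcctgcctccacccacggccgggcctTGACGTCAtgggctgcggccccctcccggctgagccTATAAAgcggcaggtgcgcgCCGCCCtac
BTC: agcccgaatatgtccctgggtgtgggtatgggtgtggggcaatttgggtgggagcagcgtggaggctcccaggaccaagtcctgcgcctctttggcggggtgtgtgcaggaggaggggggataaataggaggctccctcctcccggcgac
EPGN, EREG and AREG each hold TATAAA once, beginning 29, 32 and 29 bases before the start, a string found in 10.7% of the 35116 windows of 250 bases. The string CCAAT stands in EREG and EPGN and in 32.0% of all windows. AREG also holds a CRE beginning 65 bases before its start, which 1.65% of the windows hold. BTC holds none of the 5 strings searched, the last being an AP-1 site (TGANTCA, in 6.57% of the windows). Only exact matches were searched, and BTC holds gataaa, which differs from TATAAA in its first letter and is not marked. EREG and AREG share the TATA box position to within 3 bases, although their levels differ as given above. Windows were read for 8 of the 10 members, and not for ERBB3 and NRG1.

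The other ligands were read for completeness. NRG2 was called lower, from 165 and 234 counts to 110 and 98 (log2 fold change -1.02, FDR = 0.0108), although it passed the filter through the control group only and lost the call without control replicate 1 (FDR = 0.0620) or control replicate 2 (FDR = 0.103). NRG3 had at most 19 counts and NRG4 at most 8 in any library. EGF, which was chosen after its values were seen, had 29.1 and 27.5 CPM in control and 13.0 and 18.8 CPM in PRMT5 KD, a log2 fold change of -0.83 (FDR = 0.0121), and it too lost the call without either control library (FDR = 0.0844 and 0.0740), with a value of -0.55 without PRMT5 KD replicate 1.

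Receptors and ligands were also set side by side within each library. The ratio of EREG to EGFR in RPKM was 11.4 and 11.9 in control and 29.8 and 26.0 in PRMT5 KD. The ratio of HBEGF to EGFR was 0.814 and 0.599 against 3.82 and 1.93. The ratio of NRG1 to its receptor ERBB3 was 3.98 and 1.86 against 66.1 and 13.6, with the largest gap between libraries inside the PRMT5 KD group. None of these ratios overlapped between the groups, but EGFR and ERBB3, by which they divide, were already called lower without overlap. The level of EREG itself overlapped between the groups, and the ratios are not a separate result on the ligands. With 2 libraries against 2 a permutation test cannot give a two-sided p below 0.333.

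Of the 9 genes that release the ligands or assist in it, 6 were called lower and 0 higher (1 higher at an unadjusted p under 0.05, and 0 by DESeq2), where 24.3% and 21.2% of all genes tested were called. Their log2 fold changes had a median of -0.80 against -0.0077 over all genes tested. ADAM17, the protease that cuts most EGFR ligands from the membrane, fell from 215 ± 0.742 CPM to 102 ± 3.96 CPM (SD, n = 2), or -1.08 on the log2 scale (FDR = 0.000626). RHBDF1 and RHBDF2, the iRhom proteins that carry ADAM17 to the cell surface, fell from 108 to 35.9 CPM (-1.59, FDR = 0.000420) and from 42.7 to 19.3 CPM (-1.15, FDR = 0.00174). ADAM9, a related membrane protease, fell from 384 to 191 CPM (-1.01, FDR = 0.00123, and -0.63 after the length and GC correction). With that correction ADAM17 was at -0.72, RHBDF1 at -1.40 and RHBDF2 at -0.82, all still called. FRMD8, which stabilises the iRhoms, lay in the other direction without a call, at 47.1 and 51.8 CPM against 66.3 and 70.2 CPM (0.46, FDR = 0.0144), and it is named because it was the only gene of the list above 0. Counts per gene do not measure release of any ligand.

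Inhibitors of the receptors and factors that mark them for degradation moved in both directions. Of 15 tested in a list of 16, 7 were called lower, 2 higher and 6 not at all, with a median of -0.30, beside 24.3% lower and 21.2% higher among all genes tested. ERRFI1 (MIG6), which binds and blocks the EGFR kinase, fell from 210 ± 0.343 CPM to 83.2 ± 31.3 CPM (-1.34, FDR = 0.00945), and the call was lost without control replicate 2 (FDR = 0.0536). CBLB, a ubiquitin ligase for activated receptors, fell from 125 to 56.4 CPM (-1.14, FDR = 0.00789), a call lost without PRMT5 KD replicate 2 (FDR = 0.0524). SOCS3, an inhibitor of cytokine and receptor signalling, rose from 18.5 ± 2.84 CPM to 69.8 ± 22.7 CPM (1.92, FDR = 0.00233), and LRIG3, a relative of the receptor inhibitor LRIG1, rose from 11.3 to 32.7 CPM (1.53, FDR = 0.00109). After the length and GC correction 3 genes of the list were called lower, with total counts alone 4, and without either control library 2.

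Adaptors and first effectors gave 6 genes called lower and 2 higher of 20 tested, with a median of -0.35. Among all genes tested 45.5% were called, so 8 of 20 is near the background. SHC1, an adaptor that links the receptors to RAS, fell from 538 to 316 CPM (-0.76, FDR = 0.00687), and GAB2, a docking protein for PI3K, from 39.8 to 19.8 CPM (-1.01, FDR = 0.0285). PIK3R3, a regulatory subunit of PI3K, fell (-0.64, FDR = 0.0175), and VAV2, a guanine nucleotide exchange factor, rose from 25.6 to 46.0 CPM (0.85, FDR = 0.00262). The calls on SHC1, GAB2 and PIK3R3 were lost without control replicate 2, that on GAB2 also without control replicate 1, and that on PIK3R3 also without PRMT5 KD replicate 2 (-0.47). GAB2 was not called after the length and GC correction either (-0.84, FDR = 0.0511) and was -0.64 without PRMT5 KD replicate 2, and PIK3R3 was not called with total counts alone (-0.46). With total counts alone the list had 4 genes higher and 2 lower, so its balance depends on the scaling, and the count of genes lower was 3 without control replicate 1 and 1 without control replicate 2.

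Among the 16 genes of receptor endocytosis and sorting, 3 were called higher and 2 lower, with a median of -0.06, a smaller share than the 45.5% called among all genes tested. STAM and HGS, partners in sorting ubiquitinated receptors to the lysosome, rose from 54.8 to 104 CPM (0.92, FDR = 0.000999) and from 107 to 191 CPM (0.83, FDR = 0.00267, and 1.29 after the length and GC correction). CLTC, the clathrin heavy chain, fell from 1005 to 586 CPM (-0.78, FDR = 0.00401), and AP2B1, a subunit of the clathrin adaptor AP-2, from 446 to 282 CPM (-0.66, FDR = 0.00558). Without control replicate 2 neither CLTC nor AP2B1 was called. CLTC also lost its call after the length and GC correction (-0.49), and AP2B1 with total counts alone (-0.48).

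The receptors of the family were last compared with 24 other receptor tyrosine kinases, of which 15 were tested. Of these 10 were called lower and 1 higher, where 24.3% and 21.2% of all genes tested were, and the median of the 15 was -0.97, against -1.06 over EGFR, ERBB2 and ERBB3. The decrease was thus seen in tested receptor kinases outside the family as well. Below the filter, FGFR3 (1 and 6 counts in control against 44 and 38) and RET (29 and 40 against 52 and 112) lay higher. PDGFRA (157 and 303 against 9 and 9), FGFR2, KIT and NTRK2, also below it, lay lower, and the groups overlapped for MERTK, ROR1 and INSRR. FGFR4 had the largest decrease among the 15 tested, from 19.8 to 2.12 CPM (-3.23, FDR = 0.000278). FGFR4 and INSR, which was also called lower (-2.39), passed the filter through the control group only. DDR1 and DDR2, which bind collagen, fell from 297 to 88.5 CPM (-1.75, FDR = 0.000564) and from 745 to 239 CPM (-1.64, FDR = 0.000525). PDGFRB, which also stands among the fibroblast markers, fell from 98.5 to 18.9 CPM (-2.38, FDR = 0.00293). Lists and members were chosen with earlier results of these libraries known, so the counts describe these genes and are not a test of the lists.

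**Figure D4:**
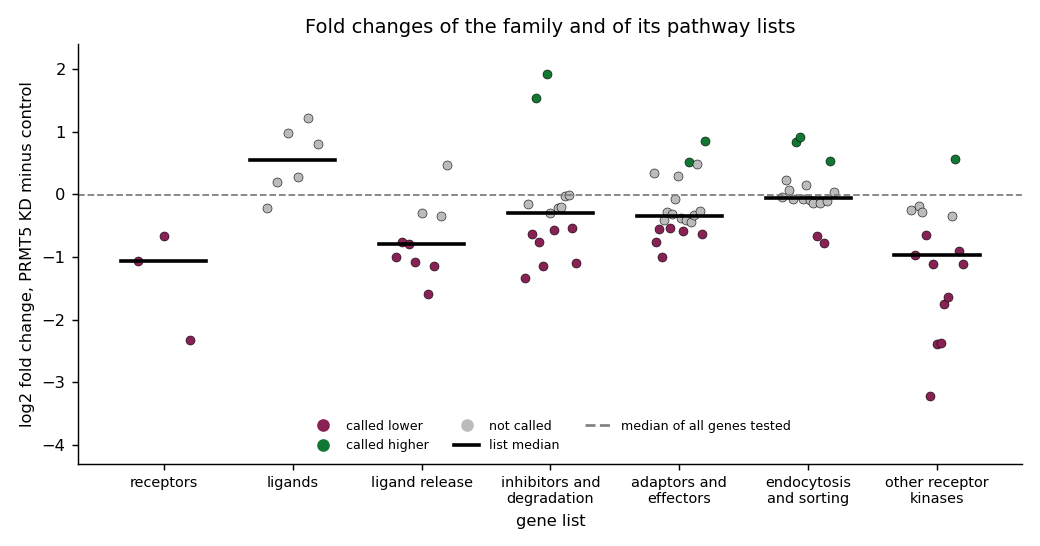
Each point is the log2 fold change of 1 tested gene, grouped by list, in colour where called, with black bars at the list medians and a dashed line at the median of all genes tested. The 3 receptors and most of the other receptor kinases lie below 0, the 6 ligands tested lie between -0.22 and 1.22 without a call, and the ligand release genes have a median of -0.80.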

How the data were processed

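RNA-seq libraries were made by the authors from total RNA of UMSCC74B cells with a directional kit, 2 per group. The authors deposited estimated counts per gene, not normalized, in 1 table per library. The submitters' processing notes name FastQC, Trim Galore, STAR, Salmon, DESeq2 and GRCh38 without roles or versions, while the methods name STAR and FeatureCounts on protein-coding genes. Each table listed 29744 entries, and 28 names turned into dates, with 0.150% to 0.161% of the counts, were left out. Names were matched to GENCODE 44 on GRCh38, and all 10 members matched by current symbol.

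Counts were rounded, and 11896 protein-coding genes entered the tests, those whose RPKM (union exon length) reached 0.5 in each library of at least 1 group. The main test was the quasi-likelihood test of edgeR 4.0.16 (R 4.3.3) with robust dispersion, TMM factors between 0.934 and 1.09 and Benjamini-Hochberg adjustment (FDR) over all genes tested. CPM and RPKM in the text are on TMM-scaled totals. The 95% intervals use the moderated degrees of freedom of that fit, and each standard error is the fold change over the root of its F statistic. The fit was tested on simulated data in which a small part of the genes changed, equally in both directions. Here 45.5% of the genes were called, so that test does not check the scaling or the FDR at such a share. Alternatives were DESeq2 1.42.0, other scalings and filters, all gene names, non-robust dispersion, a fold change threshold of 1, a replicate term, a spline correction for exon length and GC content (4 degrees of freedom each) and each library left out in turn, where the lone library of a group is taken to vary like the other group.

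Members and gene lists were chosen with earlier results of these data known, the lists being written from general knowledge. The text names the 10 members, the other family genes, PRMT5, the chromosome 4 genes and, from each other list, at most the 4 called genes with the largest change and an average log2 CPM of at least 3. EGF, FRMD8, INSR, the genes overlapping ERBB2 and EGFR, and the cell type markers were named outside that rule, after their values were seen. Promoter windows are RefSeq sequences (GRCh38.p14). Depth limits EPGN most. The intervals on fold changes cover counting error and the spread between these libraries, which may be technical. Outlying libraries could not be tested with 2 per group.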

Additional observations from a re-analysis of the deposited data

How the results depend on the processing

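EGFR kept its direction and its call under all 17 other settings, and ERBB3 under all in which it was tested (it fell below the filter at an RPKM of at least 1). The ERBB2 call was lost with total counts alone (-0.49), after the length and GC correction (-0.28, and -0.29 with the replicate block added) and at a fold change threshold of 1 (-0.67), and ranged from -0.90 to -0.43 with a library left out. The causes of these changes were not tested, apart from thresholds and smaller designs that act by construction. Ranges with a library left out were -0.58 to 0.10 for AREG (reversed at 0.02 and 0.10), -0.15 to 0.62 for TGFA (reversed at -0.15), 0.34 to 1.44 for HBEGF, 0.37 to 1.77 for NRG1 and 0.40 to 1.17 for BTC. HBEGF gained a call under DESeq2 (0.98), and BTC under DESeq2 (0.82), total counts alone (1.00), no filter (0.86), filterByExpr (0.88) and all gene names (0.92). EPGN, tested in the last 3 only, was called at 1.92, 1.94 and 1.98.

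Replicate numbers were not taken as pairs, since neither labels nor methods say so and the deviations of same-numbered libraries correlated at -0.102. With the replicate block HBEGF (0.90) and NRG1 (1.09) were called, as they were with the length and GC correction added (0.82 and 1.53, where PIK3R3 lost its call at -0.52), and the number of called genes went from 5417 to 5182. The crossed pairing, added after the data were seen, called BTC (0.77) and 5483 genes.

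Members called higher numbered 0 in the main test, 2 under DESeq2, no filter, filterByExpr, all gene names and the replicate block with or without the correction, 1 with total counts alone and the crossed pairing, and 0 to 3 with a library left out. Of all genes, a threshold of 1 left 1031 higher and 1529 lower, and leaving out a library gave 1354 to 2765 higher and 1763 to 2951 lower, lowest without control replicate 2. Ligand release genes called higher numbered 1 with total counts, no filter, filterByExpr, all gene names and both length and GC fits, and 0 to 1 with a library left out. Inhibitors called lower were 4 with total counts, 3 in both length and GC fits and at a threshold of 1, and 2 to 6 with a library left out. Adaptors called higher were 4 with total counts, 1 at an RPKM of at least 1, 0 at a threshold of 1 and 1 to 3 with a library left out, and those called lower were 2, 3 over all gene names, 1 at that threshold and 1 to 6. Endocytosis genes called lower were 1 with total counts and in both length and GC fits, 0 at a threshold of 1 and 0 to 2 with a library left out, and 0 were higher at that threshold. Other receptor kinases called higher were 3 with no filter and over all gene names, 2 with filterByExpr, 0 at a threshold of 1 and 0 to 1 with a library left out.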
